A study of Mus musculus with 9 samples.

Results

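The 9 genes described here encode proteases, chaperonins and a scaffold of the mitochondrion: Clpp, Clpx, Lonp1, Afg3l2, Yme1l1, Hspd1, Hspe1, Hspa9 and Phb2. They were chosen by name from a table of 56748 genes, and all 9 passed the filter on low counts that left 13042 genes for testing. The choice was made with the comparison of formoterol and vehicle known, so their differences between the groups are given as a description, with no test of their own. Whole liver tissue of male C57BL/6J mice was profiled by poly(A) RNA-seq after 20 weeks on a high-fat diet, which began at 8 weeks of age and ended at 28 weeks. In the last 4 weeks, 5 mice received formoterol, a long-acting agonist of beta-adrenergic receptors, at 1 mg/kg daily into the peritoneum, and 4 mice received the DMSO vehicle by the same route. All mice of both groups ate the high-fat diet, so no group on ordinary chow enters these values. Libraries carry animal codes, with M46 to M50 read as the formoterol group and M56, M58, M59 and M60 as the vehicle group from the last letter of a suffix and the group sizes, and each direction below rests on that reading. The question is how liver transcripts differ between mice given formoterol and mice given vehicle on this diet.

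Mitochondria keep their own protein quality control, since most of their proteins enter unfolded from the cytosol. In the matrix, mortalin (Hspa9) pulls in and folds arriving chains, and the chaperonin ring Hsp60 (Hspd1) closes over them with its lid Hsp10 (Hspe1). The matrix proteases LONP1 and ClpXP, in which the unfoldase CLPX feeds the peptidase chamber CLPP, degrade misfolded or surplus proteins, while AFG3L2 and YME1L1 are membrane-bound AAA proteases that face the matrix and the intermembrane space. Prohibitins, PHB2 among them, form ring scaffolds in the inner membrane that bind such proteases. Liver is rich in mitochondria, and several of these genes are known targets of the mitochondrial unfolded protein response, in which damaged import or folding raises chaperone and protease transcripts.

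The promoters are shown for 2 pairs of partner genes whose values parted in these livers: Hspe1 and Hspd1, which lie head to head and whose products form 1 machine, and Clpp and Clpx, whose products form another. Upstream sequences are RefSeq sequences of build GRCm38.p6, while the count table uses mm39. Capitals mark matches to 5 of the motifs searched on both strands, which were the heat shock units GAANNTTC and TTCNNGAA, the ERR site AAGGTCA, the NRF1 core GCATGCGC, the CCAAT box and the GC box GGGCGG. The stretch between the start sites of Hspd1 (reverse strand) and Hspe1 (forward strand) spans 215 bases at chr1:55087933-55088147, on the forward strand. The 250 bases before the Clpp start lie at chr17:56990014-56990263 and those before the Clpx start at chr9:65294010-65294259, both on the forward strand.
Hspd1 to Hspe1: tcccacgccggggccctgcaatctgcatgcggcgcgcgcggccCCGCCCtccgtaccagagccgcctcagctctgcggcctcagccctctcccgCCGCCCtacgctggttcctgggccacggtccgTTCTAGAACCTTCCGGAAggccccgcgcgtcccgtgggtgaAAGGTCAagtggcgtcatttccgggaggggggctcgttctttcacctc
Clpp: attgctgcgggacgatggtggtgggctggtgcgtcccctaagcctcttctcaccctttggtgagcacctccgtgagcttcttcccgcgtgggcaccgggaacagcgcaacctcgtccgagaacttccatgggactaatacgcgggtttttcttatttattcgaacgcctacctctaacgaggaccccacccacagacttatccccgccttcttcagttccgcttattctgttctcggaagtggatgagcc
Clpx: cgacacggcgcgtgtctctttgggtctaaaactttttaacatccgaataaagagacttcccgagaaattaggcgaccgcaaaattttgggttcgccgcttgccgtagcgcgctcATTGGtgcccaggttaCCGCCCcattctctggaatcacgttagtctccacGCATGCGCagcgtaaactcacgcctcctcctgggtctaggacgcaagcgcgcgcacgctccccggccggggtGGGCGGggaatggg

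The stretch shared by Hspd1 and Hspe1 held 3 overlapping heat shock units in a row, 1 ERR site and 2 GC boxes. At least 3 heat shock units occurred in 0.256% of the 32851 promoter windows of the reference, which run from 250 bases before to 50 after a start, and at least 1 occurred in 15.1%. The ERR site, a match to the site bound by estrogen-related receptors, occurred in 4.72% of windows. The Clpp stretch held no match before the start, and its window held 1 heat shock unit 33 bases after it. Clpx had 1 NRF1 core (2.71% of windows), 1 CCAAT box (37.4%) and 2 GC boxes (35.7%). Promoter windows were found for 7 of the 9 genes, all but Afg3l2 and Hspa9, and with the second start of Hspd1 there were 8. None of the 8 held the cAMP response element TGACGTCA (1.79% of all windows) or the amino acid response motif TGATGNAAN (3.95%). These are letter matches only, and binding was not measured.

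Levels between genes are compared as CPM per kilobase, which is the count scaled to a common library size with TMM factors and divided by the gene length in the table. In vehicle livers the chaperones led, with Hspd1 at 62.7 ± 7.00 (SD, n = 4), Hspa9 at 48.2 ± 8.50 and Hspe1 at 38.8 ± 13.0 CPM per kilobase. Clpp followed at 33.6 ± 7.51 and Phb2 at 30.0 ± 3.72. Each neighbouring pair in this order from Hspd1 to Phb2 had overlapping ranges of mean ± SD. Lonp1 came next at 13.3 ± 2.47, then Clpx at 9.05 ± 1.14, Yme1l1 at 7.36 ± 0.85 and Afg3l2 at 4.52 ± 0.34 CPM per kilobase, and of these only Clpx and Yme1l1 overlapped by that measure. In formoterol livers Hspe1 stood at 59.8 ± 17.0 (SD, n = 5) and Clpp at 56.2 ± 10.8, next to Hspd1 at 63.6 ± 8.15 and above Hspa9 at 45.8 ± 7.33 CPM per kilobase. The lengths of Afg3l2 (9874 bp) and Yme1l1 (8009 bp) are the longest of the 9. How the table's lengths treat isoforms is not given in the sources used here, so the low rank of these genes per kilobase depends on that length.

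Clpp, the peptidase of the ClpXP protease, had the largest difference of the 9 genes. Its level (ENSMUSG00000002660; chromosome 17, 57297305 to 57303188 on mm39) was 29.6, 44.8, 38.7 and 51.2 CPM in vehicle libraries M56, M58, M59 and M60. In formoterol libraries M46 to M50 it was 84.1, 67.5, 80.1, 54.9 and 57.2 CPM. All 5 formoterol livers lay above all 4 vehicle livers, and M49 and M50 were closest to the vehicle range. Means were 68.8 ± 13.2 CPM against 41.1 ± 9.18, a log2 fold change of 0.74 (SE 0.18) or 1.67-fold. Clpp was the only 1 of the 9 genes whose groups did not overlap in this way, where 2.45% of the 13042 genes tested were separated upward and 2.38% downward.

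Clpx, the AAA unfoldase that selects substrates for CLPP, showed no such separation. Clpx (chromosome 9, 65201542 to 65237940) was at 26.6, 32.6, 36.2 and 31.1 CPM in the vehicle libraries and at 46.3, 31.0, 36.6, 25.1 and 29.2 CPM in formoterol libraries M46 to M50. The formoterol livers fell on both sides of the vehicle range, with M46 highest and M49 lowest of all 9. The log2 fold change was 0.09 (SE 0.18), and it was −0.064 without M46.

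**Figure D1:**
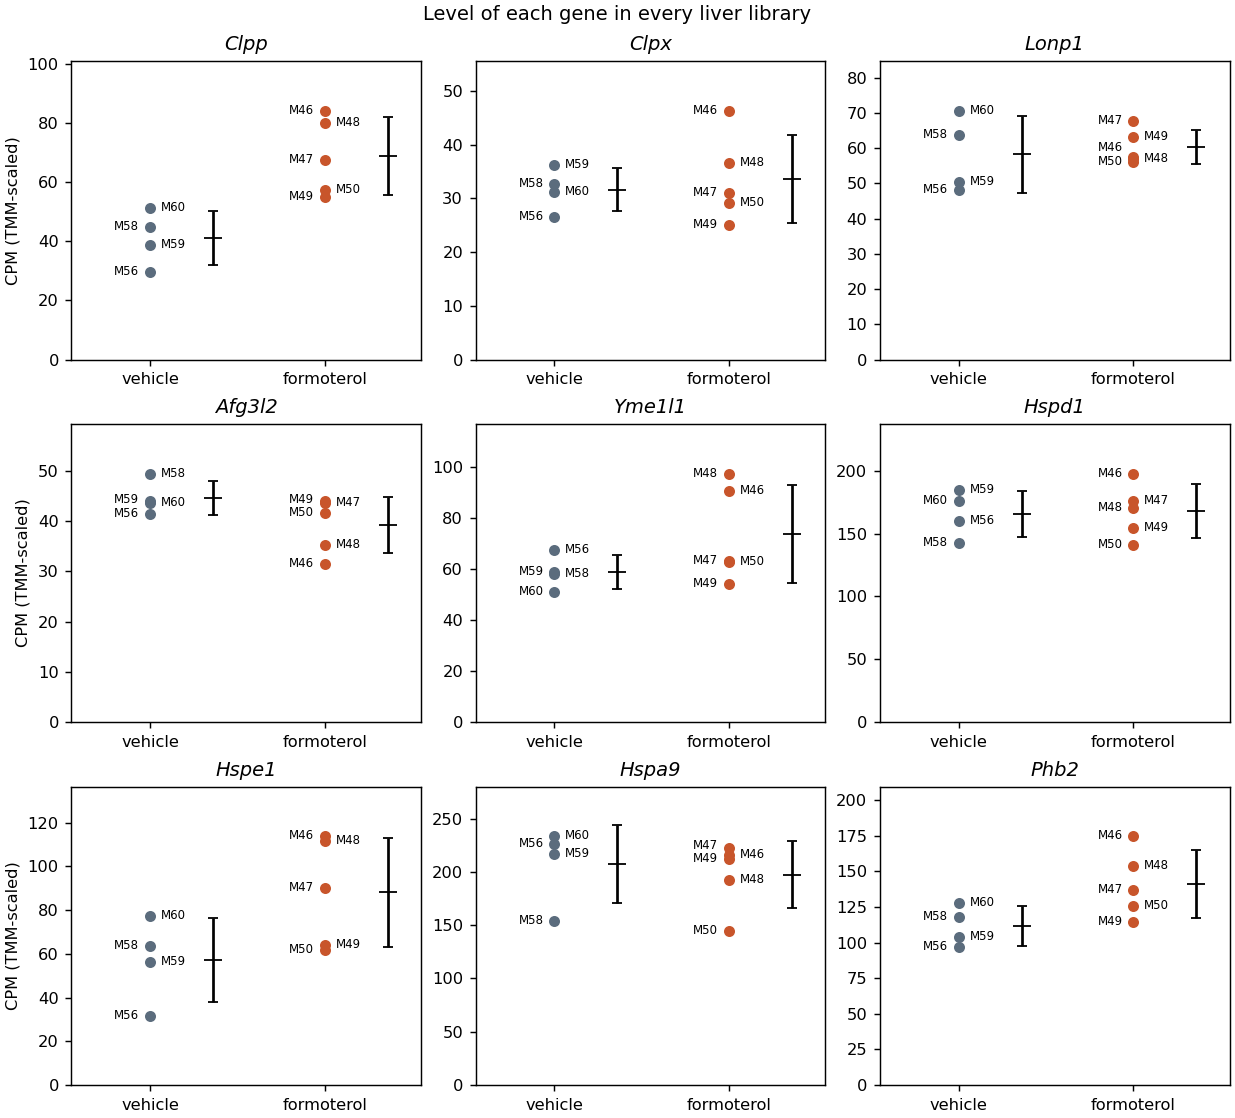
Each panel shows 1 gene, with CPM on a vertical axis that starts at 0, a point for each library (4 vehicle, grey; 5 formoterol, orange) and the mean with its SD beside the points. Clpp is the panel without overlap, with formoterol points from 54.9 to 84.1 CPM above vehicle points from 29.6 to 51.2, while Hspd1, Hspa9 and Lonp1 show mixed groups.

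The chaperonin lid and ring also had unlike values. Hspe1 (ENSMUSG00000073676; chromosome 1, 55127291 to 55130466), which encodes Hsp10, was at 31.7, 63.6, 56.2 and 77.4 CPM in the vehicle libraries. It was at 113.8, 89.95, 111.6, 63.9 and 61.6 CPM in formoterol libraries M46 to M50. Formoterol libraries M46, M47 and M48 lay above every vehicle library, M49 and M50 lay inside the vehicle range, and vehicle library M56 was lowest. Means were 88.2 ± 25.0 CPM against 57.2 ± 19.2, a log2 fold change of 0.62 (SE 0.26), which was 0.42 without M56 and 0.81 without M60.

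Hspd1 (ENSMUSG00000025980; chromosome 1, 55116994 to 55127402), which encodes the Hsp60 ring, was at 160.2, 142.4, 184.4 and 175.9 CPM in the vehicle libraries and at 197.8, 176.1, 170.5, 154.5 and 141.3 CPM in formoterol libraries M46 to M50. The groups lay on top of each other, with a log2 fold change of 0.02 (SE 0.15) whose sign turned under several settings. The sequence between these starts is the one printed above with its 3 heat shock units. RefSeq also lists a second Hspd1 start, at 55088243 on GRCm38.p6, and from that start the printed stretch lies inside Hspd1. The 2 genes overlap by 112 bases on mm39 on opposite strands, and with no strand setting stated, reads there cannot be told apart. The pseudogenes Hspd1-ps3 and Hspd1-ps4 held 291 and 33 counts over the 9 libraries against 24704 for Hspd1. Reads that fit several copies could have been split or dropped in counting.

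Hspa9, the matrix Hsp70 that drives import and hands chains to Hsp60, was the most abundant of the 9 in CPM. It ranged from 153.6 (M58) to 233.6 (M60) CPM in vehicle and from 144.7 (M50) to 222.6 (M47) in formoterol libraries (chromosome 18, 35070467 to 35087410). Means were 197.5 ± 31.6 against 207.6 ± 36.7 CPM, a log2 fold change of −0.07 (SE 0.17). In both groups 1 library lay well under the rest, M58 and M50.

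Lonp1, the ATP-driven matrix protease that removes oxidized proteins and also degrades TFAM, had 60.3 ± 4.90 CPM in formoterol against 58.2 ± 10.8 in vehicle livers (chromosome 17, 56921297 to 56933887). The formoterol libraries, from 56.2 to 67.6 CPM, all lay inside the vehicle range of 48.1 to 70.6. The log2 fold change was 0.05 (SE 0.15).

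The fold changes of the membrane proteases had opposite signs, and in each gene 2 formoterol libraries lay outside the vehicle range while the groups overlapped. Yme1l1 (chromosome 2, 23046381 to 23089272), whose product cuts OPA1 and lipid transfer proteins on the side of the intermembrane space, was at 67.6, 58.02, 59.1 and 51.1 CPM in the vehicle libraries and at 90.8, 63.4, 97.6, 54.1 and 63.0 CPM in formoterol libraries M46 to M50. Only M46 and M48 lay above the vehicle range, and the log2 fold change of 0.32 (SE 0.18) was 0.19 without M48, 0.21 with quality weights and 0.16 with scaling by library totals. Afg3l2 (chromosome 18, 67537834 to 67582242), a subunit of the matrix-facing protease that matures a mitochondrial ribosomal protein, had means of 39.2 CPM in formoterol and 44.7 in vehicle livers, with a log2 fold change of −0.19 (SE 0.14). Its values were lowest in M46 (31.5) and M48 (35.1), the same formoterol libraries in which Yme1l1 was highest, and the other 3 formoterol libraries lay within the vehicle range of 41.5 to 49.5 CPM.

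Phb2, a subunit of the prohibitin ring, was at 97.0, 117.8, 104.2 and 127.9 CPM in the vehicle libraries (chromosome 6, 124689299 to 124693913). In formoterol libraries M46 to M50 it was at 174.7, 137.0, 153.9, 114.5 and 125.95 CPM. M46, M47 and M48 lay above the vehicle range and M49 and M50 inside it, as for Hspe1. The log2 fold change was 0.34 (SE 0.16), and 0.18 with scaling by library totals. Its ring partner Phb, which was not chosen with the 9, had 175.5 ± 35.1 CPM against 120.6 ± 21.8 (log2 fold change of 0.54 with SE 0.18, adjusted p = 0.212 by edgeR), so both prohibitin transcripts were higher on average and neither passed the test over all genes.

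Ratios within a library do not depend on how libraries are scaled, and they show the partners side by side. Fold changes over all genes tested varied with gene length, with a trend of 0.22 at the length of Clpp and −0.0022 at that of Clpx. The ratios are not corrected for this trend. Per kilobase, Clpp stood to Clpx at 3.18, 3.92, 3.05 and 4.70 in vehicle libraries M56, M58, M59 and M60 and at 5.19, 6.21, 6.26, 6.26 and 5.60 in formoterol libraries M46 to M50. Every formoterol liver had more Clpp for its Clpx than every vehicle liver, and the mean ratio was 5.90 ± 0.49 against 3.71 ± 0.76, 1.59-fold. Lonp1 to Clpp was 0.25 ± 0.056 in formoterol against 0.40 ± 0.039 in vehicle livers, also with no overlap. Both separated ratios contain Clpp, whose own groups did not overlap, so they are not independent of each other. In M49, where Clpp itself was lowest of its group, the Clpp to Clpx ratio was 6.26, with Clpx lowest of all there.

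Hspe1 stood to Hspd1 at 0.93 ± 0.18 in formoterol against 0.62 ± 0.21 in vehicle livers, with formoterol values of 0.74 to 1.17 and vehicle values of 0.35 to 0.80. M49 and M50 lay inside the vehicle range. Afg3l2 to Yme1l1 was 0.46 ± 0.17 against 0.62 ± 0.093, with M46 at 0.28 and M48 at 0.29 below the vehicle range and M47, M49 and M50 inside it. Hspd1 to Hspa9 was 1.40 ± 0.16 against 1.32 ± 0.16, less than the spread within either group. These ratios use the same groups that the choice of genes used and are given without a test.

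**Figure D2:**
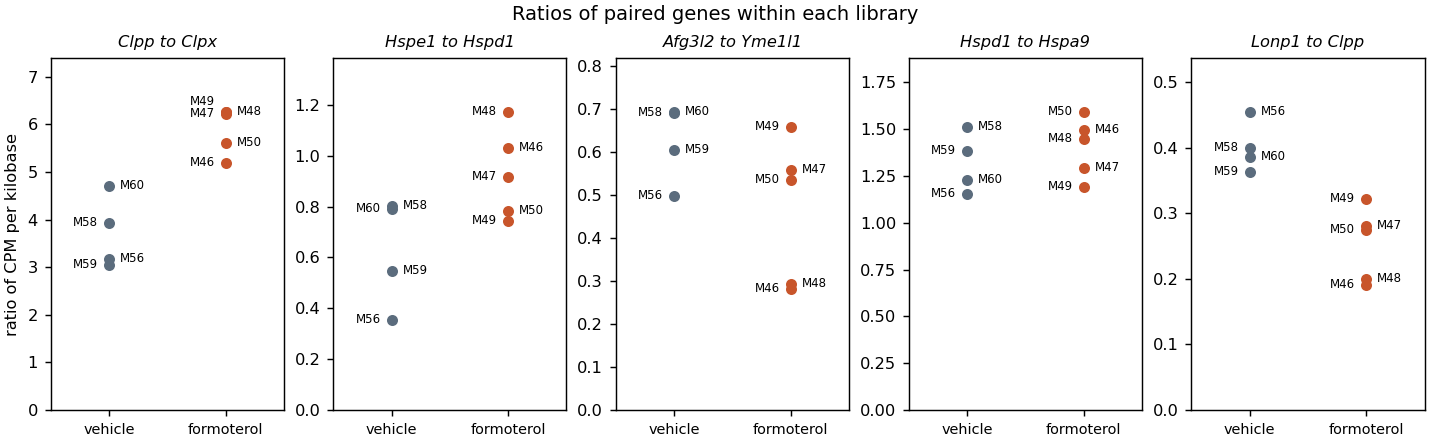
Each panel shows the ratio of 2 genes in CPM per kilobase (vertical axis from 0) with a point for each library, vehicle in grey and formoterol in orange. The Clpp to Clpx panel is split between 4.70 and 5.19 and the Lonp1 to Clpp panel between 0.32 and 0.36, while the other 3 panels overlap.

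Across the 9 libraries the genes fell into a mobile and a steady set. The SD of log2 CPM over the 9 libraries was 0.57 for Hspe1 and 0.49 for Clpp, 0.32 for Yme1l1, and 0.17 to 0.27 for the other 6. Likeness of 2 genes was measured as the root-mean-square difference of their log2 CPM, each centred on its own mean over the 9 libraries. Of 36 pairs, Hspd1 with Hspa9 was closest at 0.16 and Clpp with Hspe1 second at 0.18. Partners of 1 machine were farther apart, Clpp with Clpx at 0.39 (rank 22) and Hspd1 with Hspe1 at 0.48 (rank 32). This measure also grows when the SDs of 2 genes are unequal, so it does not show whether partners rise and fall together. Formoterol libraries M46 and M48 and vehicle library M56 held the extreme values of Clpp and Hspe1. Centred log2 values of Hspe1 were 0.70, 0.68 and −1.14 there, and those of Clpp were 0.65, 0.57 and −0.86.

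**Figure D3:**
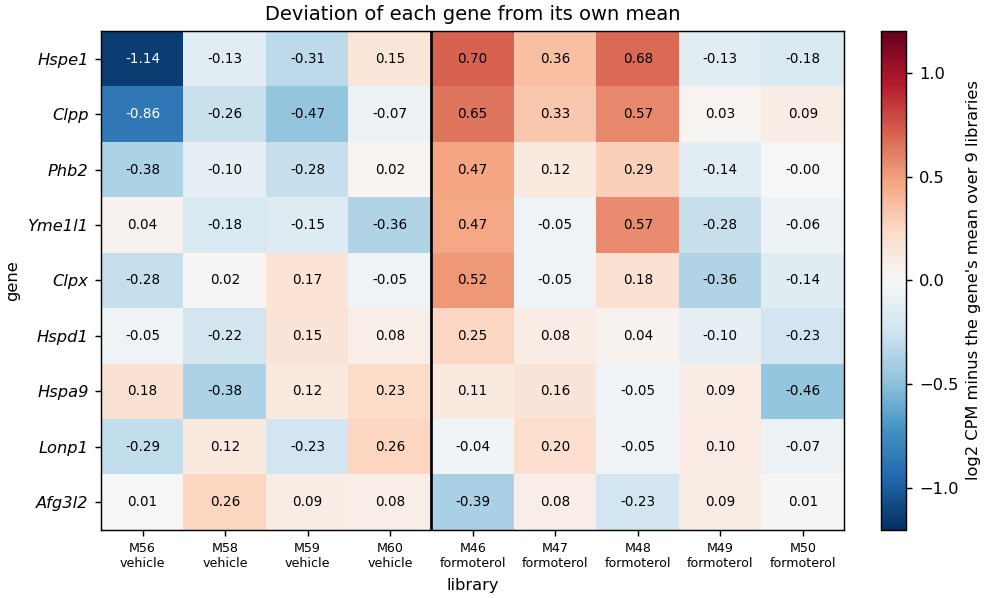
Rows are the 9 genes and columns the 9 libraries, vehicle left of the line and formoterol right of it. Colour and printed value give log2 CPM minus the gene's mean over all 9 libraries. Hspe1 and Clpp span the widest range, from −1.14 to 0.70 for Hspe1, and the rows of Hspd1, Lonp1 and Hspa9 show no side of the line that is higher throughout.

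By the same measure, over all genes tested that varied at least 0.8 times as much, the 3 genes nearest to Clpp were Micos10 (0.070), Atp5h (0.073) and Smdt1 (0.076). Those nearest to Hspe1 were Ddt (0.063), Mpc2 (0.077) and Pop5 (0.098). Hspd1 lay nearest to Hsd17b11 (0.027), Ccny and Vcp, Hspa9 to Atp5b (0.092), Tpi1 and Sdha, and Phb2 to Spryd4 (0.062), Psenen and Psmc2. Yme1l1 lay nearest to Mier1 (0.069), Syap1 and Usp25, Clpx to Asnsd1 (0.081), Nme1 and C1qbp, Lonp1 to Vps39 (0.062), Ripk1 and Efhd2, and Afg3l2 to Chmp7 (0.075), Samd1 and Necap1. The nearest genes of Clpp had log2 fold changes of 0.66 to 0.77 and those of Hspe1 0.59 to 0.65. Those of Hspd1 lay between −0.04 and 0.03. Genes picked for closeness over the same 9 libraries must have fold changes near that of the member, so these values are no separate result.

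The log2 fold change was positive for 7 of the 9 genes and negative for 2, with a median of 0.086, against 48.7% positive and a median of −0.014 over all 13042 genes tested. That median was 0.013 without M56 and 0.17 without M49, and 5 of the 9 were positive without M46 and likewise without M47. With edgeR and Benjamini-Hochberg adjustment 0 of the 9 were called, as were 0% of all genes. At an unadjusted p under 0.05, 3 of the 9 were higher (Clpp, Hspe1 and Phb2) and 0 lower, where 9.03% of all genes were higher and 5.53% lower. DESeq2 called 1 of the 9 higher (Clpp; 2.44% of genes with an adjusted p were called higher and 0.858% lower), limma-voom called 0 (0%), and the quality-weighted form of limma-voom called 2 higher (Clpp and Hspe1; 6.07% of all genes higher, 4.46% lower). Without formoterol library M49, edgeR called 1 of the 9 higher (Clpp; 3.47% of genes higher, 2.04% lower). It called 0 of the 9 when vehicle library M60 was left out (0.00757% higher, 0.0227% lower). The genes were chosen with this comparison known, and nothing is read from these counts.

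**Figure D4:**
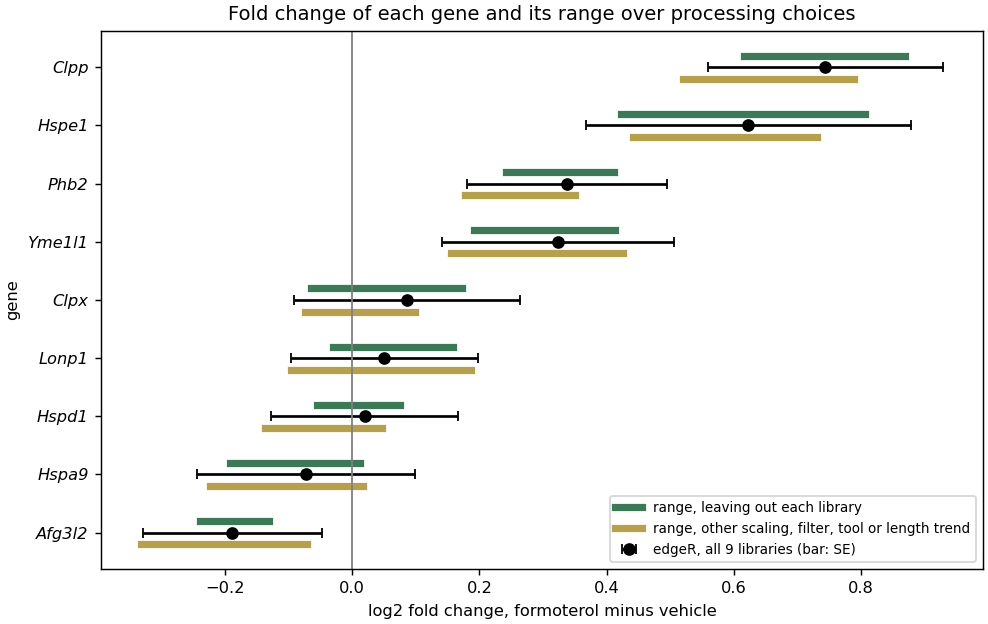
For each gene the black point gives the log2 fold change (formoterol minus vehicle, horizontal axis) over all 9 libraries with its SE, the green bar the range when each library was left out in turn, and the yellow bar the range over other scalings, filters, tools and the length trend. The bars of Clpp (0.52 to 0.87), Hspe1 (0.42 to 0.81), Phb2 (0.18 to 0.41) and Yme1l1 (0.16 to 0.43) stay right of 0. Those of Afg3l2 (−0.33 to −0.070) stay left of it, and those of Clpx, Lonp1, Hspd1 and Hspa9 cross it.

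Libraries held 12336665 to 20339665 counts and the 9 genes between 387 counts (Afg3l2 in M46) and 4443 (Hspa9 in M59) in each library. The share of mitochondrial-genome counts and a gene-length trend are given beside the values of Clpp and Hspe1. Their part in these values was not tested. The share of counts from the mitochondrial genome was 28.9 ± 4.37% in vehicle and 24.1 ± 8.78% in formoterol libraries (two-sided exact permutation p = 0.357, smallest possible 0.00794), lowest in M46 (16.4%) and M48 (18.1%) and highest in M50 (38.6%). With those genes left out of the totals the log2 fold change was 0.73 for Clpp and 0.62 for Hspe1. Fold changes varied with gene length, and the trend over all genes tested at the lengths of Clpp (1223 bp) and Hspe1 (1474 bp) was 0.22 and 0.18. Relative to that trend their log2 fold changes were 0.52 and 0.44, that of Phb2 (3718 bp) was 0.35 and that of Yme1l1 was 0.43. That of Afg3l2 (9874 bp) was −0.070 relative to the trend, against −0.19 before.

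Cell markers were read as the summed CPM of short lists, and their part in the values of the 9 genes was not tested. Hepatocyte markers were abundant in every library, as the liver label says. They summed to 82215 to 94576 CPM in vehicle and 98244 to 135140 in formoterol libraries, with M49 lowest of its group. Of the 7 markers tested 4 were higher, 3 lower and 0 called. Most of these sums was Alb, with 85075 ± 13035 CPM in formoterol against 66918 ± 4634 in vehicle livers and overlapping groups. Apoa1 of the same list, picked out after its values were seen, had 15874 ± 2779 CPM against 8933 ± 1276. Its groups did not overlap, as in 2.45% of all genes. The hepatocyte sums therefore mainly follow Alb, and Apoa1 adds to their difference. Of 8 stellate cell and fibroblast markers 0 had a positive fold change, and their sums were 251.4 to 413 CPM in vehicle and 82.3 to 382.4 in formoterol libraries, with M49 highest of its group. Macrophage markers (1 of 8 positive, 73.6 to 126.4 against 38.4 to 93.4 CPM) and sinusoidal endothelial markers (1 of 7 positive, 71.2 to 89.4 against 29.7 to 91.3) also had M49 highest of its group, the library in which Clpp was lowest of its group. No marker of these 4 lists was at 0 in all libraries. In bulk liver, fewer cells of a type and less RNA per cell cannot be told apart.

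The other genes of mitochondrial protein quality control were read from lists chosen with earlier results of these data known. Shares within these lists are therefore a description. With edgeR 0 genes were called in each list (0% of all genes). Among 16 other chaperones, co-chaperones and scaffolds 15 had a positive log2 fold change, with a median of 0.26, and an unadjusted p under 0.05 was reached by 7 that were higher (43.8%, against 9.03% of all genes) and 0 lower (5.53%). Pam16, a subunit of the import motor that works with mortalin, had 18.3 ± 3.68 CPM in formoterol against 11.6 ± 2.04 in vehicle livers (log2 fold change of 0.65 with SE 0.19, adjusted p = 0.179 by edgeR). Hscb, a co-chaperone of mortalin in iron-sulfur cluster assembly, had 5.72 ± 1.04 against 3.43 ± 0.75. Dnajc15, a J protein of the inner membrane, had 26.1 ± 6.04 against 17.96 ± 2.43. DESeq2 called 0 of the 16, against 2.44% of genes with an adjusted p higher and 0.858% lower. Limma-voom with quality weights called 4 higher, which were Pam16, Phb, Hscb and Dnajc15 (25%, against 6.07% of all genes). The groups of 1 gene did not overlap (6.25%, against 2.45% of all genes), which was Bcs1l, picked out after its values were seen.

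Among 15 other proteases and peptidases 9 were positive and 6 negative, with a median of 0.03, and 2 higher (13.3%, against 9.03% of all genes) and 0 lower (5.53%) reached an unadjusted p under 0.05. The median was 0.11 without M49. These 2 were Immp2l, a subunit of the inner-membrane peptidase that trims sorted proteins (34.6 ± 11.2 CPM against 21.8 ± 5.96, log2 fold change 0.66), and Metap1d, a methionine aminopeptidase (50.5 ± 14.1 against 32.7 ± 11.7, log2 fold change 0.63), and quality-weighted limma-voom called both (6.07% of all genes higher). Immp1l, the other catalytic subunit of that peptidase, had 14.3 ± 5.43 against 10.04 ± 0.67 CPM. Xpnpep3, which trims the ends of imported proteins, had 6.66 ± 1.10 against 8.69 ± 0.72.

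Among regulators of the mitochondrial stress response 3 of 11 tested were positive, with a median of −0.14, and 1 higher (9.09%, against 9.03% of all genes) and 2 lower (18.2%, against 5.53%) reached an unadjusted p under 0.05. Quality-weighted limma-voom called Ubl5 higher and Jun and Atf5 lower, against 6.07% of all genes higher and 4.46% lower. Atf5, a transcription factor of the mitochondrial unfolded protein response, had 161.4 ± 41.9 CPM against 210.1 ± 19.6 (log2 fold change of −0.38 with SE 0.18, adjusted p = 0.349 by edgeR). Jun, a subunit of the AP-1 factor, had 8.74 ± 7.31 CPM against 21.9 ± 6.36 (log2 fold change −1.31, and −1.99 when M49 was left out). Foxo3, a forkhead factor of stress defence, had 20.03 ± 6.60 against 29.1 ± 3.93. Ubl5, a ubiquitin-like protein linked to that response in worms, had 45.4 ± 6.60 CPM against 29.6 ± 6.69 (log2 fold change 0.62). DESeq2 called it higher, as it did 2.44% of genes with an adjusted p. Of the 12 listed, 1 was below the filter.

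Among 13 known substrates and partners of the inner-membrane proteases 9 were positive, with a median of 0.11, and 1 higher (7.69%, against 9.03% of all genes) and 0 lower (5.53%) reached an unadjusted p under 0.05. The median was 0.17 without M49. That gene was Smdt1, which encodes EMRE, a calcium uniporter subunit that is degraded by the AFG3L2 protease when unassembled. It had 46.2 ± 6.61 CPM against 29.2 ± 6.56 with no overlap, as in 2.45% of all genes (log2 fold change of 0.66 with SE 0.17, adjusted p = 0.167 by edgeR). DESeq2 called it alone of the 13, where 2.44% of genes with an adjusted p were called higher. Quality-weighted limma-voom also called it alone (7.69%, against 6.07% of all genes higher). Mrpl32, the ribosomal protein that the same protease matures, had 19.3 ± 4.70 against 15.5 ± 1.52 CPM, and Chchd2 250.5 ± 53.6 against 199.1 ± 37.5.

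Outside the mitochondrion, 10 of 18 cytosolic chaperone genes tested were positive, with a median of 0.06, and 0 higher (9.03% of all genes) and 1 lower (5.56%, against 5.53%) reached an unadjusted p under 0.05. The gene lower was Hsph1, a partner of cytosolic Hsp70 (10.02 ± 0.92 CPM against 13.3 ± 1.88, log2 fold change −0.40), with no overlap between the groups, as in 2.38% of all genes. Quality-weighted limma-voom called 2 lower (11.1%, against 4.46% of all genes), Hspa4 and the small heat shock protein gene Hspb1, which was picked out after its values were seen. Bag3, a co-chaperone induced by heat shock factor, had 8.00 ± 3.36 against 11.7 ± 0.58, and Hspa4, an exchange factor of Hsp70, 83.2 ± 10.3 against 99.8 ± 5.36. Cct7, a subunit of the cytosolic chaperonin, had a log2 fold change of 0.31 (SE 0.16). Hspa1a was below the filter.

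**Figure D5:**
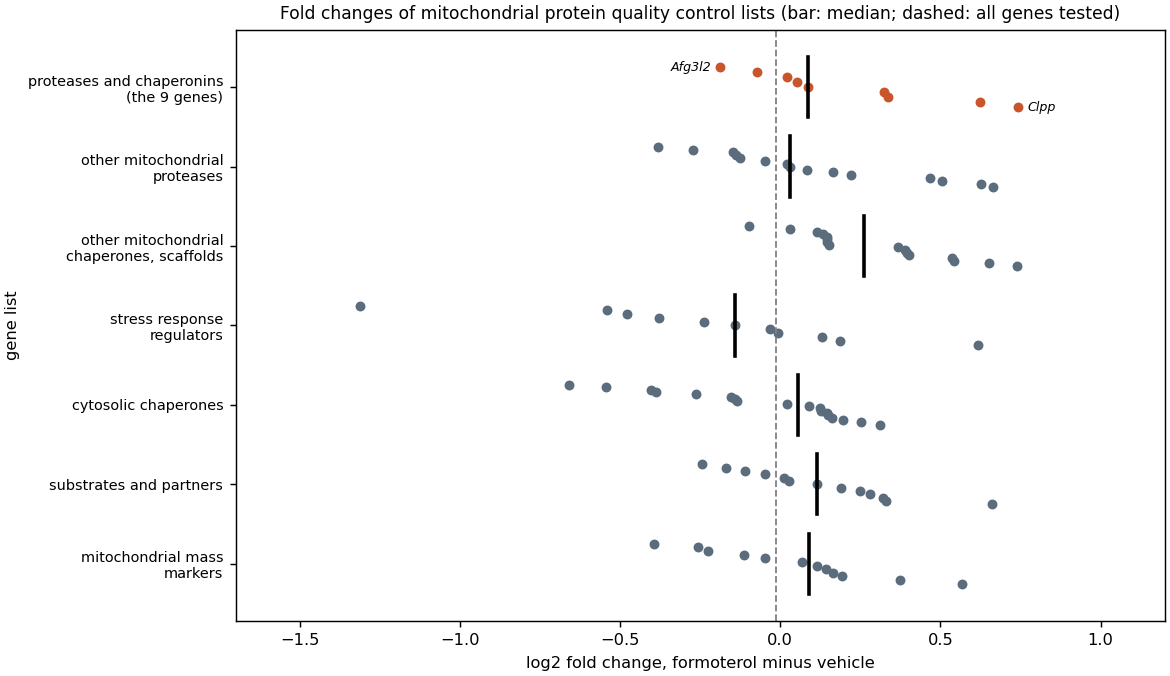
Each row is a list and each point the log2 fold change of 1 of its genes (formoterol minus vehicle, horizontal axis), with a black bar at the list's median and a dashed line at the median of all genes tested (−0.014). Only the lowest and highest of the 9 genes are labelled. The 9 genes run from −0.19 (Afg3l2) to 0.74 (Clpp), and the other chaperones and scaffolds have the highest median at 0.26.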

How the data were processed

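Raw counts for Ensembl genes came from 1 table deposited by the authors. HISAT2 2.0.5, mm39 and DESeq2 (no version) are named per the submitters' processing notes. The counter, whether it used strand, and the annotation version are each not given in the sources used here. The last letter of each column's suffix, with the group sizes of 4 and 5, put it in a group. Each library was taken as 1 mouse from its animal code, and if libraries shared a mouse, the spread behind the p-values may be technical. The table's gene lengths in bp, deposited by the authors, were used for CPM per kilobase.

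Genes were kept with edgeR's filterByExpr (minimum count 10, minimum total 15) and compared with edgeR 4.0.16 in R 4.3.3 (TMM factors, robust quasi-likelihood test, Benjamini-Hochberg adjustment, threshold 0.05 on the adjusted p). Fold changes are formoterol minus vehicle on the log2 scale with their SE, and log2 CPM used a prior count of 2. The length trend is a lowess fit (span 0.3) of log2 fold change on log2 gene length. Alternatives were DESeq2 1.42.0, limma 3.58.1 (voom, with and without sample quality weights), other scalings and filters, and leaving out each library. The code was tested on simulated data. The 9 genes and the lists were chosen with earlier results of these data known. Named genes are all 9, the 4 genes with the smallest p in each list plus any above 100 CPM on average with an unadjusted p under 0.05, and the 3 nearest genes of each of the 9 (predicted genes left out). Promoter sequences are from RefSeq (GRCm38.p6). Protein sequences were not used here, and a few genes the rule picked are not reported here. Libraries held at least 12336665 counts and each of the 9 genes at least 387 in each library.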

Additional observations from a re-analysis of the deposited data

How the results depend on the processing

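No gene passed edgeR with all 9 libraries, and this count went to 263 with no filter beyond 1 count, 307 with DESeq2 (227 higher, 80 lower), 1374 with quality-weighted limma-voom (792 higher, 582 lower; the weight of M47 was 3.51 and those of the other formoterol libraries 0.369 to 0.665), and 0 to 702 when each library was left out in turn (702 without M49, 442 higher and 260 lower, and 4 without M60). Of the 9 genes, 0 passed in the first fit (0% of all genes) and 1 was higher with no filter (191 of 24041 genes higher). DESeq2 called 1 higher (2.44% of genes with an adjusted p) and quality weights 2 higher (6.07% of all genes). With a library left out 0 to 1 passed, and 1 was higher without M49 (3.47% of genes). The median log2 fold change of the 9 genes turned negative only with scaling by library totals (−0.074), a scaling that moved the median of all genes by −0.15 to −0.16. Under library totals Clpx was at −0.074, Lonp1 at −0.096 and Hspd1 at −0.14, all above that median of all genes. Hspd1 was also negative with upper-quartile factors (−0.026) and relative to the length trend (−0.022), and Hspa9 was positive with quality weights (0.018). With each library left out, Clpx ran from −0.064 to 0.17, Lonp1 from −0.030 to 0.16, Hspd1 from −0.055 to 0.076 and Hspa9 from −0.19 to 0.013. Clpp, Hspe1, Phb2, Yme1l1 and Afg3l2 kept their sign in all 20 alternatives run, as did the 24 genes picked from the lists by the naming rule. Those 24 were picked mainly for the smallest p in these same data, which favours a kept sign. Without M49, where edgeR called 3.47% of genes higher and 2.04% lower, some genes of the lists were also called. They were Pam16 (0.74), Dnajc15 (0.63), Ubl5 (0.70), Jun (−1.99), Atf5 (−0.55), Smdt1 (0.71) and Cps1 (0.67), given with their log2 fold changes. The cause of these changes was not tested. No paired analysis was possible because the columns of the count table carry no replicate number.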

Other observations

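Markers of mitochondrial mass outside the respiratory chain gave no common direction. The log2 fold change was positive for 7 of 12, with a median of 0.091, and 0.054 without M49. At an unadjusted p under 0.05 there were 2 higher (16.7%, against 9.03% of all genes) and 1 lower (8.33%, against 5.53%). With adjustment edgeR called 0 (0% of all genes). Quality-weighted limma-voom called 1 higher, Cps1 (8.33%, against 6.07% of all genes). Cps1, the matrix enzyme that starts the urea cycle, had 547.8 ± 143.6 CPM in formoterol (SD, n = 5) against 369.7 ± 60.9 in vehicle livers (n = 4; log2 fold change 0.57), and Fh1, fumarase of the citric acid cycle, 253.3 ± 39.9 against 195.3 ± 20.9. Idh2, the NADP-dependent isocitrate dehydrogenase of the matrix, had 61.1 ± 12.2 against 72.9 ± 7.90.

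Adipocyte markers summed to 6.67 to 19.7 CPM in vehicle and 21.3 to 107.01 CPM in formoterol libraries. Of 4 listed genes 1 was tested, and Plin1 was at 0 in all 9 libraries. The gene tested was Cfd, which encodes complement factor D, and it made up most of the sum, with 75.4 ± 32.6 CPM in formoterol against 11.7 ± 5.89 in vehicle livers. These sums are therefore near to the value of 1 gene, not of a class of markers.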
